A study of Mus musculus with 6 samples.

Results

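Apoe, the sterol-sensing nuclear receptors LXRα (Nr1h3) and LXRβ (Nr1h2), and 7 other genes that move cholesterol through and out of cells were followed in the renal cortex of mice given tofogliflozin. They were chosen by symbol (Apoe, Abca1, Abcg1, Nr1h2, Nr1h3, Scarb1, Npc1, Npc2, Soat1 and Mylip), and all 10 were found among the 24346 genes of the tables. The level of Apoe was 2.12-fold higher in the tofogliflozin mice and its groups did not overlap, but it did not pass the test over all genes. The other 9 had overlapping groups.

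The mice were C57BL/6, and all 6 received for 8 weeks a diet labelled HF/HC/HS/BA. It was rich in fat, cholesterol and bile salt, and the HS of the label is not spelled out here. For the 3 NASHTofo mice tofogliflozin was mixed into this diet, a drug that inhibits the glucose transporter SGLT2 of the early proximal tubule. The 3 NASH mice ate it without the drug. The sources used here give no sex, age or dose, and no group without this diet was analysed here, so the effect of the diet itself cannot be read from these values. RNA from renal cortex, named NASHTofo 1 to 3 and NASH 1 to 3 below, was sequenced, and the deposited values are FPKM, which scale fragments by transcript length and by the depth of the library.

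As background, LXRs are switched on by oxidised derivatives of cholesterol, pair with retinoid X receptors, and induce genes that export cholesterol. Abca1 hands cholesterol to lipid-poor apolipoproteins and Abcg1 hands it to formed HDL. Apolipoprotein E, itself an LXR target in macrophages, accepts that lipid and is bound by lipoprotein receptors on the cell surface. In the kidney, proximal tubule cells take up filtered lipoproteins and apolipoproteins, and Npc2 and Npc1 then pass the freed cholesterol out of the lysosome.

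The promoters of the LXR targets Apoe, Abca1 and Mylip are shown because Apoe stood apart from the 2 others in the measurements. Each runs 5′ to 3′ from 250 bases before the start of transcription to 50 bases from it, as given by RefSeq on GRCm38.p6. Capitals mark matches to TATAAA (the TATA box), to GGGCGG (the GC box) and, in Abca1, to both half-sites of an LXR element. The windows are chr7:19699139-19699438 on the minus strand for Apoe, chr4:53159846-53160145 on the minus strand for Abca1 and chr13:45389492-45389791 on the plus strand for Mylip.
Apoe: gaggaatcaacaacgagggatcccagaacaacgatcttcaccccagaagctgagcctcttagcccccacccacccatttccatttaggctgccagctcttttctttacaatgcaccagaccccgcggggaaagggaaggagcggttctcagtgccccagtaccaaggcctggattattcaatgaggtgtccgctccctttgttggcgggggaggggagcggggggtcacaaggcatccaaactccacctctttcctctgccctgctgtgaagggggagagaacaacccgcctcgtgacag
Abca1: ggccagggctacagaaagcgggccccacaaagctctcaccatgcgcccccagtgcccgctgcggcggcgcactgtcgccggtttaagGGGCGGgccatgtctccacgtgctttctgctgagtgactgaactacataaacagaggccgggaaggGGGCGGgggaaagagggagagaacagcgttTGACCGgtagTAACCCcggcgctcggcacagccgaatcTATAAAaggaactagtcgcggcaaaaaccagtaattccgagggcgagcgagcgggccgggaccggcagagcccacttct
Mylip: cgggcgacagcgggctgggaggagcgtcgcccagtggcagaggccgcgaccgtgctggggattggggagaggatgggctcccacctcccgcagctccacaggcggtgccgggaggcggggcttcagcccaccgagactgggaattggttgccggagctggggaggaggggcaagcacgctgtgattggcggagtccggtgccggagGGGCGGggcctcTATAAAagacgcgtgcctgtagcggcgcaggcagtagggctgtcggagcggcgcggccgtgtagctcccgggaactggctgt

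The LXR element searched was a direct repeat of AGGTCA with 4 bases between the copies (DR4), on both strands, with up to 2 mismatches in its 12 half-site bases. None of the 10 windows of the 7 genes with an entry held it (0), against 3.02% of 32851 windows in the table. With 3 mismatches allowed, a setting chosen after seeing the data, the Abca1 window held a match starting at position -67 and the other windows held 0, where 21.9% of all windows have a match. AGGTCA alone, found in 16.3% of all windows, occurred in none of the 10 (0). TATAAA started at position -29 in Abca1 and -32 in Mylip (13.6% of all windows have it), and GGGCGG was also in both (35.7% of all windows). The Apoe window shown had neither, while a second annotated Apoe start had TATAAA on each strand, at positions -100 and -96, which overlap. These matches describe letters in the windows and do not show binding. A window without a match does not show that its gene lacks an LXR element. Elements outside the window, or with more mismatches than allowed, would be missed.

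The libraries were alike in depth. The spacing of the lowest FPKM values placed them at about 7650000 to 9890000 fragments, so 1 kb of transcript at 1 FPKM rests on about 7.65 to 9.89 fragments. The correlation of log2 values between libraries was 0.980 to 0.990 over the 12248 tested genes. Slc5a2, which encodes the target of the drug, averaged 164 ± 3.68 FPKM in NASHTofo and 181 ± 36.3 FPKM in NASH (SD, n = 3 each), with overlapping groups. The 10 proximal tubule markers were all above the low-value filter, with Slc34a1, the tubular phosphate transporter, at 2128 to 2645 FPKM over all libraries. Of 12248 genes, 31 were called (limma, Benjamini-Hochberg adjusted p under 0.05), which is 0.253%, with 24 higher (0.196%) and 7 lower (0.0572%) in NASHTofo. That count was 4, 18 and 2 without NASHTofo 1, 2 and 3, and 9, 66 and 57 without NASH 1, 2 and 3.

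Apoe, the apolipoprotein of the set, was at 440, 288 and 431 FPKM in NASHTofo 1 to 3, against 136, 204 and 204 FPKM in NASH 1 to 3. Every tofogliflozin library lay above every diet library, with NASHTofo 2 the nearest to the diet group and NASH 1 the lowest. The means were 386 ± 85.3 FPKM in NASHTofo and 181 ± 39.1 FPKM in NASH (SD, n = 3 each). The log2 change on the log2(FPKM + 1) scale was 1.09 ± 0.21 (SE), a 2.12-fold higher level with a 95% interval of 1.53 to 2.95. Its limma p was 0.000729, and the adjusted p over all genes was 0.0812, so Apoe did not pass. It ranked 110 of 12248 by p and 37 by log2 change, and 49 genes had a log2 change of at least 1.

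Because the Apoe groups did not overlap, leaving out a library could not turn the sign of its change. The size of the change ran from 0.89 without NASH 1 to 1.28 without NASHTofo 2 (log2). Across all 14 other settings the adjusted p ran from 0.0729 to 0.319, so Apoe passed in none of them (0). None of the 10 genes was called (0), against 0.253% of all tested genes. Of the 10, 1 had an unadjusted limma p under 0.05, against 13.1% of all tested genes (6.7% higher and 6.39% lower in NASHTofo). Likewise 1 had groups that did not overlap, against 18.5% of all tested genes (9.63% higher and 8.86% lower in NASHTofo). Both counts are Apoe, and neither share exceeds that of all genes.

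**Figure D1:**
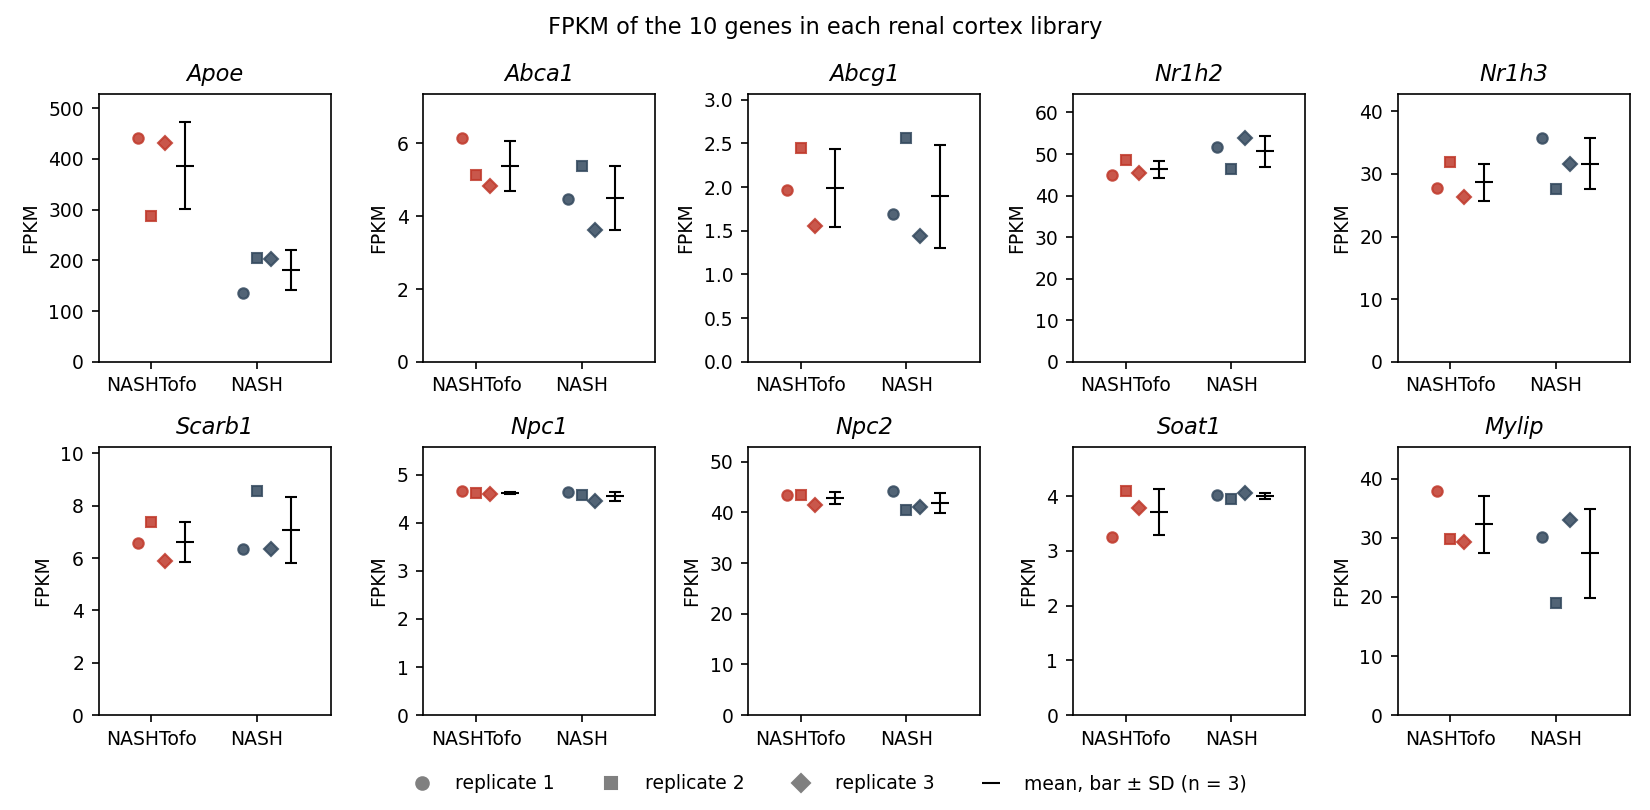
FPKM of each gene in the 3 NASHTofo libraries (left) and the 3 NASH libraries (right), with marker shape for the replicate number and mean ± SD (n = 3) beside the points. Apoe is the panel with separate groups, 288 to 440 FPKM in NASHTofo and 136 to 204 FPKM in NASH, while Npc1 stays between 4.45 and 4.65 FPKM in all 6.

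The efflux transporters were low. Abca1 (chromosome 4, 53030787 to 53159895) was at 6.14, 5.13 and 4.84 FPKM in NASHTofo and at 4.46, 5.39 and 3.63 FPKM in NASH. NASH 2 lay above NASHTofo 2 and 3, so the groups overlapped, and the log2 change was 0.22 ± 0.14 (SE; 95% interval -0.10 to 0.54; limma adjusted p = 0.547). Abcg1 (chromosome 17, 31057675 to 31117988) was at 1.97, 2.45 and 1.56 FPKM in NASHTofo and at 1.69, 2.56 and 1.44 FPKM in NASH. Its highest and lowest values were both in NASH, and its log2 change was 0.06 ± 0.18 (SE; 95% interval -0.36 to 0.47; adjusted p = 0.932). The Abcg1 change was below 0 without NASHTofo 2 or NASH 3. Abcg1 had the lowest level of the 10 genes, at percentile 9.94 of the tested genes.

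Of the receptors, Nr1h2 (LXRβ, widely expressed; chromosome 7, 44549616 to 44553951) was at 44.9, 48.6 and 45.3 FPKM in NASHTofo and at 51.6, 46.4 and 53.8 FPKM in NASH. Nr1h3 (LXRα, best known from liver, fat and macrophages; chromosome 2, 91184061 to 91202834) was at 27.8, 31.9 and 26.3 FPKM in NASHTofo and at 35.7, 27.6 and 31.6 FPKM in NASH. For both, NASHTofo 2 was the highest tofogliflozin library and NASH 2 the lowest diet library, and these crossed. The log2 change was -0.12 ± 0.08 for Nr1h2 and -0.13 ± 0.11 for Nr1h3 (SE; limma adjusted p = 0.550 and 0.656). The Nr1h2 interval of -0.30 to 0.06 and the Nr1h3 interval of -0.39 to 0.12 are 95%. Within a library, the FPKM of Nr1h3 was 0.618, 0.657 and 0.581 times that of Nr1h2 in NASHTofo and 0.692, 0.594 and 0.588 times in NASH. LXRβ transcripts were therefore the more abundant per length in all 6 libraries.

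Scarb1, the HDL receptor SR-BI (chromosome 5, 125277087 to 125341094), was at 6.58, 7.40 and 5.88 FPKM in NASHTofo and at 6.36, 8.54 and 6.34 FPKM in NASH. NASH 2 was the highest, and the log2 change was -0.08 ± 0.13 (SE; limma adjusted p = 0.843). It was 0.05 without NASH 2, so its direction rests on that library. Mylip (chromosome 13, 45389742 to 45412022) encodes an LXR-induced ubiquitin ligase that marks lipoprotein receptors for degradation. It was at 37.9, 29.8 and 29.2 FPKM in NASHTofo and at 30.2, 18.9 and 33.1 FPKM in NASH, and NASH 2 stood below all others. The log2 change was 0.26 ± 0.20 (SE; adjusted p = 0.629) and 0.02 without NASH 2.

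The lysosomal pair was the steadiest of the set. Npc2, the soluble cholesterol carrier of the lysosome (chromosome 12, 84754562 to 84773152), was at 43.4, 43.5 and 41.4 FPKM in NASHTofo and at 44.1, 40.5 and 41.1 FPKM in NASH. Npc1, the membrane protein that receives its cholesterol, was at 4.65, 4.62 and 4.59 FPKM in NASHTofo and at 4.64, 4.57 and 4.45 FPKM in NASH. Their log2 changes were 0.03 (95% interval -0.13 to 0.19) and 0.02 (-0.17 to 0.21), with limma adjusted p of 0.895 and 0.950. The coefficient of variation over the 6 libraries was 3.59% for Npc2 and 1.58% for Npc1, against 44.8% for Apoe. The spread of Npc1 within groups was below that of nearly all tested genes, at percentile 0.139. That spread was taken on the log2(FPKM + 1) scale, which understates it for genes of low level. Soat1, which esterifies cholesterol for storage (chromosome 1, 156424525 to 156474331), was at 3.26, 4.09 and 3.79 FPKM in NASHTofo and at 4.02, 3.95 and 4.06 FPKM in NASH. NASHTofo 1 was low and the groups overlapped (log2 change -0.09 ± 0.10, SE; adjusted p = 0.752).

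**Figure D2:**
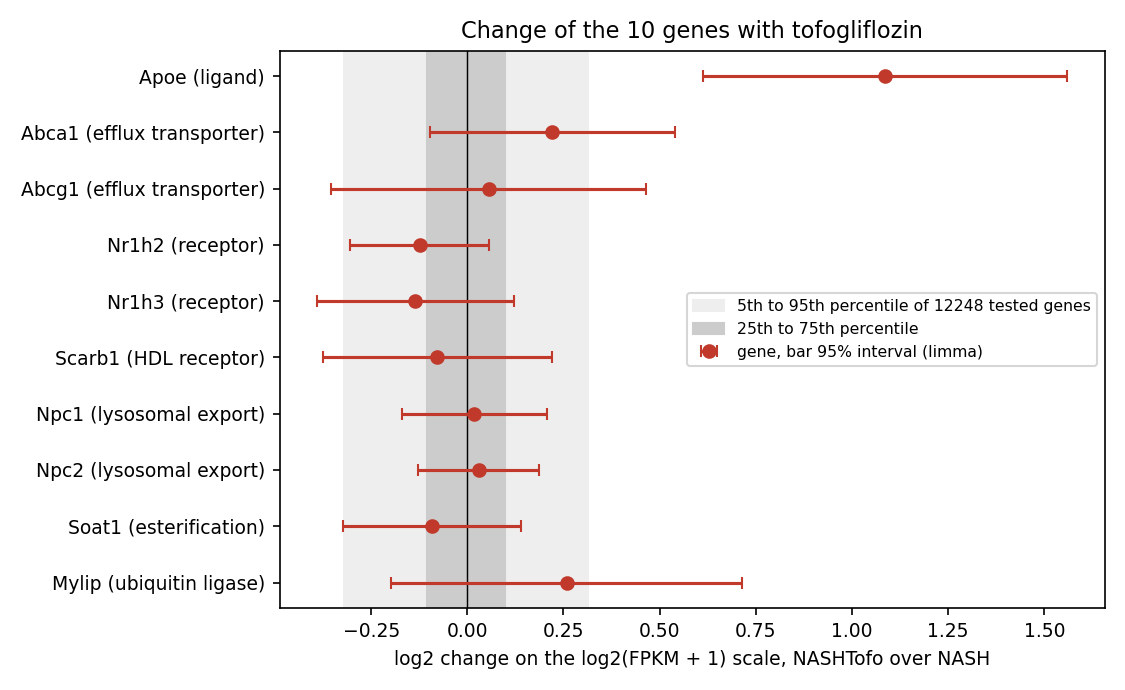
Log2 change (NASHTofo over NASH, log2(FPKM + 1) scale) of each gene with limma's 95% interval, over grey bands for all 12248 tested genes. Apoe, at 1.09, lies outside the bands, and the 95% intervals of the other 9 genes include 0.

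Of the 10 genes, 6 had a change above 0 and 4 below, with a median of 0.02 (log2), beside -0.00075 over all tested genes. The 9 genes other than Apoe lay between -0.13 and 0.26. By level over all 6 libraries, in FPKM, Apoe came first at a mean of 284, then Nr1h2 at 48.4, Npc2 at 42.3, Nr1h3 at 30.2 and Mylip at 29.8. Scarb1 at 6.85, Abca1 at 4.93, Npc1 at 4.59, Soat1 at 3.86 and Abcg1 at 1.94 followed. The ranges of Nr1h3 and Mylip overlapped, as did those of Scarb1 and Abca1 and those of Abca1 and Npc1. The other neighbours in this order did not overlap in range.

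In the GRCm38 annotation Apoe (ENSMUSG00000002985.16) is at 19696109 to 19699188 of chromosome 7, on the minus strand like the neighbours named here. Apoc1, the nearest apolipoprotein gene, was at 0.788, 1.51 and 1.36 FPKM in NASHTofo and at 2.04, 1.52 and 1.87 FPKM in NASH, far below Apoe. Every Apoc1 value of NASHTofo lay below NASH, by 0.02 FPKM at the closest, and its log2 change was -0.35 ± 0.16 (SE; limma adjusted p = 0.412). Apoc2, the activator of lipoprotein lipase, was under the filter at 0.487, 0.311 and 0.559 FPKM in NASHTofo and at 0, 0.314 and 0 FPKM in NASH. Apoc4 was listed at 0 in all 6 libraries.

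On the other side of Apoe, Tomm40, of the mitochondrial import pore, had a log2 change of 0.09. Pvrl2, a cell adhesion nectin, and Bcam, a laminin receptor, each had 0.16, and the ubiquitin ligase gene Cblc had -0.37. Beyond Apoc1, Clptm1 had -0.08 and the NF-κB subunit gene Relb -0.38. Of these 7 tested neighbours 3 were above 0 and 4 below, and none was called (0; limma; 2 at an unadjusted p under 0.05, Relb and Cblc).

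**Figure D3:**
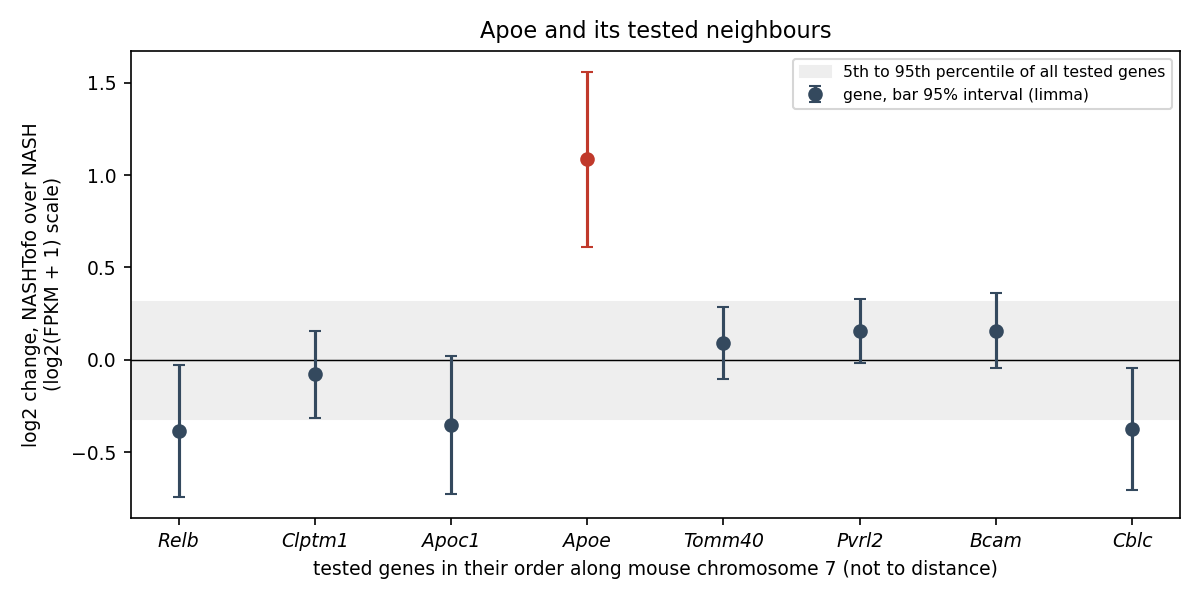
Log2 change (NASHTofo over NASH) with 95% interval for Apoe and its 7 tested neighbours in their order along chromosome 7. Apoe is at 1.09, and the neighbours lie between -0.38 and 0.16.

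Beyond the 5 genes of the set that are on it, a list of LXR targets held 12 tested genes, of which 5 had a change above 0 and 7 below (median -0.06, log2). None was called (0; limma; 1 higher and 2 lower at an unadjusted p under 0.05). Lpl, lipoprotein lipase, was at 109, 172 and 104 FPKM in NASHTofo and at 278, 155 and 284 FPKM in NASH, with overlap (log2 change -0.88 ± 0.27, SE; limma adjusted p = 0.225). Scd1, a fatty acid desaturase, was at 17.7 ± 2.31 FPKM in NASHTofo and 25.2 ± 4.69 FPKM in NASH (SD, n = 3 each). The LXR target genes thus included changes of both signs, and Abcg5, Cyp7a1 and Apoc4 were listed at 0 throughout.

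Of 13 tested partners and coregulators of LXR, 3 had a change above 0 and 10 below (median -0.11), with 0 called (limma; 1 lower at an unadjusted p under 0.05). That gene was Ncoa3, a coactivator, at 12.7 ± 0.268 FPKM in NASHTofo and 16.3 ± 1.42 FPKM in NASH (adjusted p = 0.174; n = 3 each). Cyp27a1, an enzyme that makes the LXR ligand 27-hydroxycholesterol, was at 36.5 ± 2.31 FPKM in NASHTofo and 30.4 ± 4.52 FPKM in NASH (SD, n = 3 each), with groups apart (log2 change 0.26; limma adjusted p = 0.379).

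Of 18 tested genes of sterol transport and storage, 11 had a change above 0 and 7 below (median 0.04), with 0 called (limma; 3 higher at an unadjusted p under 0.05). Those were Scarb2, a lysosomal membrane protein, at 21.9 ± 0.486 FPKM in NASHTofo and 16.2 ± 1.34 FPKM in NASH, and Osbpl9, an oxysterol-binding protein relative, at 156 ± 15.3 FPKM in NASHTofo and 115 ± 8.07 FPKM in NASH. The last was Cav1, caveolin-1, at 15.7 ± 0.335 FPKM in NASHTofo and 11.2 ± 1.73 FPKM in NASH (SD, n = 3 each). Their groups did not overlap, and their limma adjusted p ran from 0.0819 for Scarb2 to 0.144 for Cav1.

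Among 10 tested lipoprotein receptors and their regulators, 3 were above 0 and 7 below (median -0.06), with 0 called (limma; 1 higher and 1 lower at an unadjusted p under 0.05). Lrp2, the endocytic receptor megalin, was at 195 ± 24.4 FPKM in NASHTofo and 213 ± 19.5 FPKM in NASH. Cd36, a scavenger receptor, was at 101, 134 and 107 FPKM in NASHTofo and at 196, 154 and 160 FPKM in NASH, with groups apart (log2 change -0.57; limma adjusted p = 0.131).

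The other HDL and efflux genes had 3 of 8 above 0 (median -0.15) and the other apolipoproteins 4 of 9 (median -0.07), with 0 called in each (limma; 2 and 2 at an unadjusted p under 0.05). Apom, which is carried on HDL and made in proximal tubule, was at 140, 123 and 144 FPKM in NASHTofo and at 70.8, 65.1 and 121 FPKM in NASH. Its groups did not overlap, though NASH 3 reached 121 FPKM (log2 change 0.71 ± 0.21, SE; limma adjusted p = 0.219). Apoh, a phospholipid-binding plasma protein, had a change below 0, at 11.4, 14.1 and 7.83 FPKM in NASHTofo and at 36.3, 25.9 and 15.4 FPKM in NASH (log2 change -1.11; adjusted p = 0.194). Apoa4 was at 3.12 ± 0.826 FPKM in NASHTofo and 5.53 ± 0.441 FPKM in NASH, and Clu, clusterin or apolipoprotein J, at 117 ± 3.63 FPKM in NASHTofo and 109 ± 6.31 FPKM in NASH. Apolipoprotein genes therefore had changes of both signs beside Apoe.

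**Figure D4:**
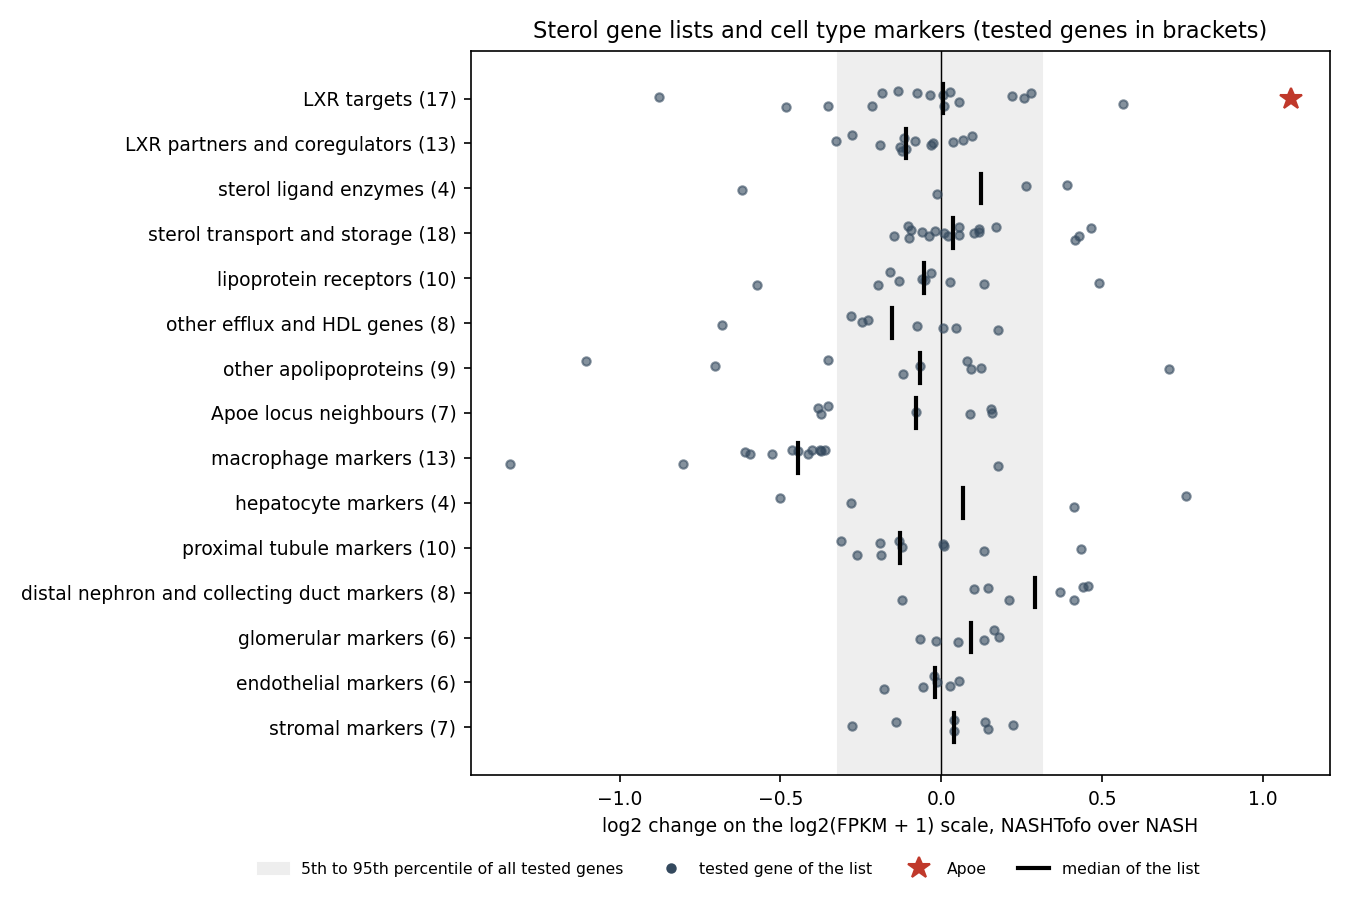
Log2 change (NASHTofo over NASH) of each tested gene in the sterol lists and cell type marker lists, with the list median as a bar and Apoe as a star. The macrophage markers have the lowest median, -0.45, and the distal nephron and collecting duct markers the highest, 0.29.

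Apoe is made by macrophages as well as by other cells, and most tested macrophage markers had the other sign. Of 13 tested markers 12 had a change below 0 (median -0.45, log2), with 0 called (limma; 2 lower at an unadjusted p under 0.05). For each of these 12, NASH 2 was the highest library. Lyz2, a lysozyme gene of myeloid cells, was at 11.9, 19.1 and 10.7 FPKM in NASHTofo and at 28.1, 88.9 and 17.7 FPKM in NASH. The 20 markers summed to 877 to 1647 FPKM in NASHTofo and 695 to 4255 FPKM in NASH, most of it Cd74, and none was at 0 in every library. The sum of NASH 3, at 695 FPKM, was below that of every NASHTofo library. In bulk tissue, fewer cells of a type and less RNA per cell cannot be told apart, and the part of these cells in the Apoe values was not tested.

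Liver and adrenal cortex are other rich sources of genes in this set. Alb, albumin, was at 7.31 ± 0.963 FPKM in NASHTofo and 3.90 ± 0.484 FPKM in NASH (SD, n = 3 each), with groups apart (log2 change 0.76; limma adjusted p = 0.0541). Of 8 hepatocyte markers 4 were tested, 2 above and 2 below 0 (median 0.07, log2), with 0 called (limma; 2 higher and 0 lower at an unadjusted p under 0.05). The 2 were Alb and Fgb, a fibrinogen chain gene, which was at 2.05 ± 0.511 FPKM in NASHTofo and 1.28 ± 0.228 FPKM in NASH (SD, n = 3 each; log2 change 0.41; limma adjusted p = 0.308). Both had groups apart, in the direction of Apoe. The 2 below 0 were Ttr and Apoa2, with overlapping groups (log2 change -0.50 and -0.28; limma adjusted p = 0.510 and 0.564). The part of such cells in the Apoe values was not tested. The sums of the 8 markers were 67.4 to 117 FPKM in NASHTofo and 89.8 to 158 FPKM in NASH, mostly Ttr, and Cyp7a1 was at 0 throughout. Of 8 adrenal cortex markers Cyp11a1, Cyp11b2 and Cyp21a1 were listed at 0 in all libraries, and the sum, nearly all Fdx1, was 67.3 to 73.4 FPKM in NASHTofo and 55.4 to 75.6 FPKM in NASH. Of 9 adipocyte markers only Fabp4, which endothelium also expresses, passed the filter. Their sum was 58.6 to 73.0 FPKM in NASHTofo and 60.7 to 79.6 FPKM in NASH, and Lep was at 0.

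Along the nephron, 7 of 8 distal nephron and collecting duct markers had a change above 0 (median 0.29) and 0 were called (limma; 4 higher at an unadjusted p under 0.05). Their sums were 2431 to 2572 FPKM in NASHTofo and 2104 to 2778 FPKM in NASH. Scnn1g, a sodium channel subunit of the collecting duct, was at 17.7 ± 0.179 FPKM in NASHTofo and 13.04 ± 0.388 FPKM in NASH (adjusted p = 0.0644). Of 10 proximal tubule markers 4 were above 0 and 6 below (median -0.13), with 0 called (limma; 1 higher and 2 lower at an unadjusted p under 0.05; sums 5341 to 6496 FPKM in NASHTofo and 5816 to 7117 FPKM in NASH). Glomerular markers had a median of 0.09 over 6 genes, endothelial markers -0.02 over 6 and stromal markers 0.04 over 7, with 0 called in each (limma; 1, 0 and 0 at an unadjusted p under 0.05). The part of cell composition in the Apoe values was not tested.

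The 5 genes whose pattern over the 6 libraries was most like that of Apoe, by the root mean square difference of centred log2(FPKM + 1) values, were Stc2, Serpina1a, Abcb1b, Gc and Slc22a29. The difference was 0.128 for Stc2, a secreted glycoprotein gene, and 0.167 for Slc22a29, of the organic anion transporter family. Stc2 was at 3.87, 2.11 and 3.53 FPKM in NASHTofo and at 0.589, 0.881 and 0.880 FPKM in NASH. Gc, the vitamin D-binding protein gene, was at 39.8, 24.3 and 38.0 FPKM in NASHTofo and at 12.01, 22.9 and 22.3 FPKM in NASH. In both, as in Apoe, NASHTofo 2 was the lowest tofogliflozin library and NASH 1 the lowest diet library. Serpina1a, an alpha-1-antitrypsin gene whose close relatives can share its reads, was the 1 of the 5 that was called and rose (log2 change 1.25 ± 0.18, SE; limma adjusted p = 0.0437). Abcb1b, a drug efflux pump, was at 6.47 ± 1.81 FPKM in NASHTofo and 3.14 ± 0.631 FPKM in NASH (adjusted p = 0.148). Since likeness was measured over all 6 libraries, these genes share the group difference of Apoe and its order of libraries by construction.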

How the data were processed

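RNA from renal cortex was sequenced with a strand-specific mRNA kit, per the labels' protocols. The authors deposited FPKM values, 1 table per library. The submitters' processing notes name TopHat2 2.1.1, Bowtie2 2.2.8, SAMtools 0.1.18, Cuffdiff 2.2.1 and mm10. The sources used here do not give their roles, the annotation, the use of strand or any scaling between libraries. Npc1 shares exons with Rmc1 on the other strand, and Nr1h3 with Gm13783, so their values are less certain. Groups and replicate numbers come from the titles. Nothing says how the 3 mice of a group were housed. The limma p-values set the group difference against the spread within groups, moderated over all tested genes. They take the 3 mice of a group as independent, which could not be checked here.

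Read counts were not analysed here. Depth was read from genes below 0.3 FPKM throughout, where 85.7% of 9056 values came within 1% of whole multiples of a step, and lengths of 329 single-transcript genes gave the totals. These are estimates, no count test was run, and a listed 0 may be a failed estimate.

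Genes that reached 1 FPKM in 3 or more libraries were tested on log2(FPKM + 1) with limma 3.58.1 in R 4.3.3 (two-sided, mean-variance trend, Benjamini-Hochberg over 12248 genes, threshold 0.05), and the fit was tested on simulated data. On this scale the change of low genes is understated. Named were the 10 genes, up to 4 genes of smallest p from each list, called genes on a list, the Apoe neighbours, the 5 genes most like Apoe and Slc5a2. Clu, the adipocyte markers under the filter and the list genes at 0 were named after their values were seen. Some list genes that this rule names are not reported here. The genes and lists were chosen with earlier results of these data known. Alternatives were the pseudocount (0.1), no filter or 5 FPKM, upper-quartile, quantile and total scaling, no trend, the replicate number as a block, and leaving out each library.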

Additional observations from a re-analysis of the deposited data

How the results depend on the processing

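The number of the 10 genes called was 0 in all 14 alternatives. Of 137 repeated log2 changes of these genes, 134 kept their direction and their side of the threshold and 3 turned direction. No filter, the 5 FPKM filter, no trend and the replicate block leave a log2 change as it is. In those settings only the adjusted p could move. For Apoe, whose groups did not overlap, leaving out a library could not turn the direction either. With a library left out, the log2 change of Abcg1 ran from -0.06 to 0.21 (-0.05 without NASHTofo 2, -0.0596 without NASH 3) and that of Scarb1 from -0.15 to 0.05 (0.047 without NASH 2). The cause was not tested. The count of all genes called was 31, and with a library left out it ran from 2 to 66. It was 1 with no filter on low values, where 17726 genes were tested, and 20 at 5 FPKM, where 8754 were tested. No scaling moved the median of all genes by 0.1 or more. Replicate numbers are shared between groups, and the deviations of same-numbered libraries correlated at -0.05, -0.06 and 0.05. Those of differently numbered libraries correlated at -0.14 to 0.19. With so few libraries these values cannot show whether the numbers pair the mice. With the replicate block 26 genes were called and the Apoe change was 1.09 (limma adjusted p = 0.153). Depth limits the genes of low level, such as Abcg1 at a mean of 1.94 FPKM.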

Other observations

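Ratios within a library remove scaling between libraries. Npc2 had 9.34, 9.42 and 9.01 times the FPKM of Npc1 in NASHTofo 1 to 3 and 9.52, 8.86 and 9.24 times in NASH 1 to 3. The ratio of Abca1 to Abcg1 was 3.12, 2.09 and 3.11 in NASHTofo 1 to 3 and 2.64, 2.11 and 2.52 in NASH 1 to 3, and replicate 2 was the lowest of each group. Cfd, an adipocyte marker under the filter, was at 5.03 FPKM in NASH 1 and between 0.108 and 0.870 FPKM in the other libraries. Adipoq, Plin1, Retn, Cidec, Cidea and Ucp1, also under the filter, were likewise highest in NASH 1, at 0.353 (Plin1) to 0.781 FPKM (Cidec). Of the other adipocyte markers, Fabp4 was highest in NASHTofo 2 and Lep was at 0. NASH 1 was also the lowest library for Apoe, and the part of such cells in the Apoe values was not tested.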
